A study of Mus musculus with 34 samples.

Results

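The contacts of the immunoglobulin heavy chain locus Igh were described within 1 mouse plasmacytoma, PCT4961, from its 2 circular chromosome conformation capture (4C) libraries, out of 34 samples in the series. These are all the samples that the labels give as 4C of PCT4961. The labels give a Balb/c mouse, the genotype AID-/- BclXL, a bait in IgH and the enzyme HindIII for both libraries, numbered 1 and 2. They do not say what drives BclXL, nor whether the libraries came from separate cultures, so the spread between them may be technical. The other samples are histone mark, RNA polymerase II and RNA profiles and the 4C libraries of a second plasmacytoma, TEPC1165, which was used here only to look for reads shared between libraries.

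A plasmacytoma is a tumor of antibody-secreting plasma cells. In such tumors strong Igh enhancers, which drive antibody production, are often brought next to a growth-promoting gene. AID is the deaminase that starts class switching and somatic hypermutation of antibody genes, and BclXL blocks cell death. In 4C, chromatin is crosslinked, cut, here with HindIII, and ligated, so that the sequences joined to a bait fragment tell what lay near it in the nucleus or along the same DNA. Sequences on the bait's own DNA molecule are normally found most often close to the bait and less often with distance, and other chromosomes are found rarely. A rearrangement that places distant DNA next to the bait gives a like signal, and 4C reads alone do not tell these apart. No expression was measured in these libraries, so the plasma cell label could not be checked against marker genes. No file used here gives the bait fragment or a genome of the files' build, so no sequence is printed.

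The libraries held 1668589 and 2178689 reads in 12836 windows on mm9, a mouse assembly. Of these 12816 were 200 kb long and 20 shorter. Reads fell on 11226 and 10685 of 823057 HindIII fragments, with a mean of 149 and 204 reads per detected fragment. The copies behind those reads cannot be counted, so each comparison is given both in reads and as the share of HindIII fragments detected by at least 1 read, which ignores copies. Intervals are 95% and cover counting error only. RPM are reads per 1000000 reads of the library, and 3 reads, the limit that a count of 0 allows, are 1.80 RPM in library 1 and 1.38 RPM in library 2. With 2 libraries of 1 tumor, a two-sided exact permutation test over libraries cannot go below p = 0.5, so no test is given, and a difference is called repeated only where both libraries show it.

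Chromosome 12 was split by position. The highest window of both libraries was 12:114400001-114600000, taken as the bait window. It held 21.2% and 20.5% of all reads. It and the 5 windows on each side form the bait region. The higher side is the 29 windows from there to the end of the chromosome, and the interior the 465 windows below it down to 20 Mb. The Mycn end is the 85 windows below 20 Mb, towards the centromere, since mouse chromosomes are numbered from that end. The background is the 10911 windows of the 17 autosomes other than 12 and 15.

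Libraries with the same number in the 2 tumors resembled each other in sparse windows. Across the background windows the Pearson correlation of log2(reads + 1) was 0.25 between the PCT4961 libraries, but 0.64 between the libraries numbered 1 of the 2 tumors and 0.64 between those numbered 2. These are descriptions across windows, which are not independent. The libraries may share reads, and the cause was not tested. Chromosome 15, where TEPC1165 has its highest contact outside chromosome 12, was left out of the background. In 32 of the 34 windows above the bait window, both PCT4961 libraries had more reads than the TEPC1165 library of the same number. The same held in 13 of the 14 high windows of the Mycn end, defined below. High windows were chosen for many PCT4961 reads, so this count was largely set by the rule. It also held in all 12 high windows of the higher side and all 5 of the background, where 0.0458% of windows were high. In the interior the correlation was 0.73 between the PCT4961 libraries but 0.80 and 0.81 with the TEPC1165 library of the same number. That library had at least as many reads, above 0, in 166 and 124 of the 465 interior windows. In the background it did so in 2728 and 1981 of 10911 windows, where 4336 and 4009 windows held a PCT4961 read. The background values used as the base below may thus also hold shared reads. Without such windows 40 of the 58 high interior windows were left. The mean reads of the interior over those of the background were then 13.7 times in place of 12.7 (means of the libraries). This step drops windows low in PCT4961 from both regions, so the ratio does not measure how many reads were shared. Detection was not recomputed in this way.

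**Figure D1:**
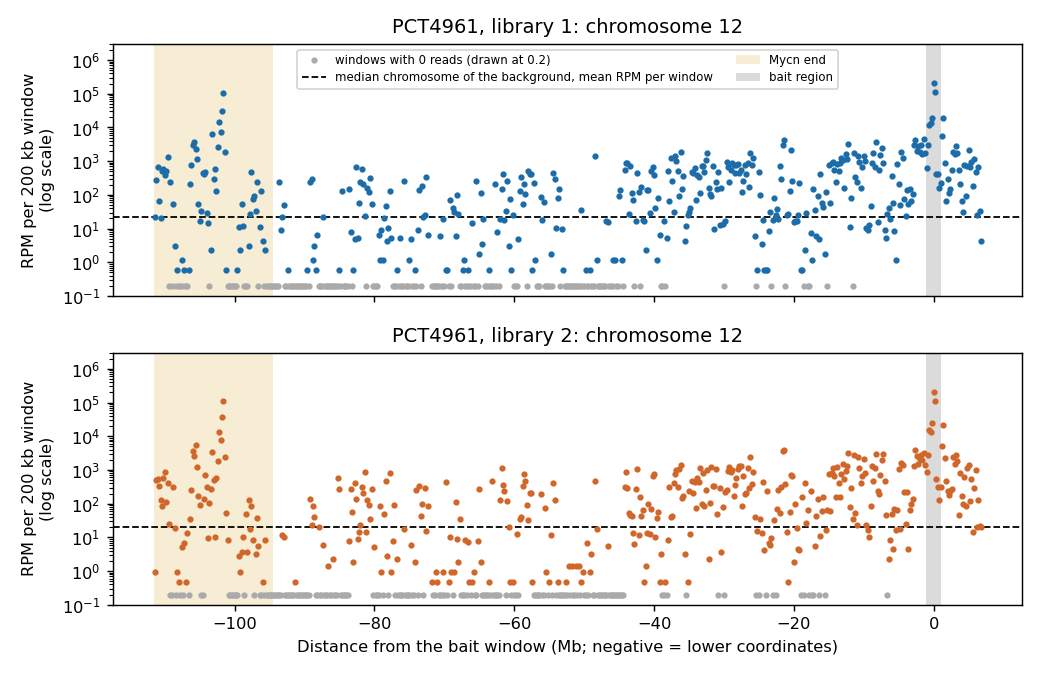
RPM in each 200 kb window of chromosome 12 (log axis) against the distance from the bait window in Mb, for PCT4961 library 1 (top) and library 2 (bottom). Grey points at the bottom are windows with 0 reads, the dashed line is the median of the 17 background chromosomes (22.4 and 19.7 RPM per window), and shading marks the Mycn end and the bait region; the Mycn end rises to 102234 and 108878 RPM.

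The Mycn end held more reads than the whole interior, which has more than 5 times as many windows. Of all reads beyond the bait region, it took 29.6% in library 1 (Wilson interval 29.5% to 29.7%) and 31.1% in library 2 (31.1% to 31.2%), a mean of 30.4% ± 1.09 (SD, n = 2). The interior took 20.2% and 19.8%, the higher side 6.91% and 7.35%, and the background 37.7% and 36.5%. A window of the Mycn end held 101 times the mean reads of a background window in library 1 and 110 times in library 2. The share of fragments detected differed by less: 7.92% (exact interval 7.22% to 8.65%) and 8.43% (7.72% to 9.19%) at the Mycn end against 0.935% (0.913% to 0.958%) and 0.855% (0.834% to 0.877%) in the background, a ratio of 8.47 and 9.86. Counted as fragments, the Mycn end was 4.07% and 4.56% of all fragments detected outside the bait region. The remaining difference lay in reads per detected fragment, with 702 and 903 at the Mycn end against 60.4 and 83.3 in the background.

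Most of these reads lay in a few adjoining windows. Mycn encodes a transcription factor of the Myc family that drives growth and is amplified in some childhood tumors. Window 12:12800001-13000000 alone held 170587 and 237211 reads, 55.4% ± 0.526 (SD, n = 2) of the reads of the Mycn end. In it 51 and 52 of 54 HindIII fragments were detected, 94.4% and 96.3%, a larger share than in the bait window (34 of 38 in each library). Its 102234 and 108878 RPM came close to the 110444 and 109373 RPM of the window next to the bait on the higher side, although 101.6 Mb of the reference chromosome separate it from the bait window. Reads per detected fragment were also alike in these windows, 3345 and 4562 at the Mycn end and 3351 and 4255 beside the bait.

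Towards lower coordinates contact declined unevenly, and towards higher coordinates it ended within 1 window. Below the highest window, 12:12600001-12800000 held 52711 and 81822 reads on 47 and 49 of 57 fragments. The next, 12:12400001-12600000, held 11935 and 16505 reads, fewer than 12:12200001-12400000 beyond it, which held 23515 and 28645. Both libraries thus dipped at the same window. The fifth highest window of the Mycn end, 12:11200001-11400000, held 11050 and 7231 reads on 26 and 20 of 64 fragments, and was the only one of these 5 with fewer reads in library 2, which is the deeper one. Above the highest window, 12:13000001-13200000 held 3181 and 5198 reads, but on only 4 of 73 fragments in each library. Of the 9 windows from 13.2 to 15 Mb, only 2 held a read in each library, with 2 reads in all in library 1 and 133 in library 2. Fragment detection there was 0.319% (0.0387% to 1.15%) and 0.478% (0.0988% to 1.39%), intervals that include the background shares of 0.935% and 0.855%. In the GRCm38 gene order, which is used here for order only, the protein-coding neighbours of Mycn on the declining side are Cyria, Rad51ap2, Vsnl1, Smc6, Gen1, Msgn1, Kcns3 and Rdh14. Smc6 encodes a subunit of a DNA repair complex and Gen1 an enzyme that resolves joined DNA strands. On the other side follow Ddx1, which lies next to Mycn and is often amplified with it, Nbas, Lratd1, Trib2, Lpin1, Ntsr2, Greb1 and E2f6. Windows were not assigned to single genes, because no gene positions of mm9 were used here.

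**Figure D2:**
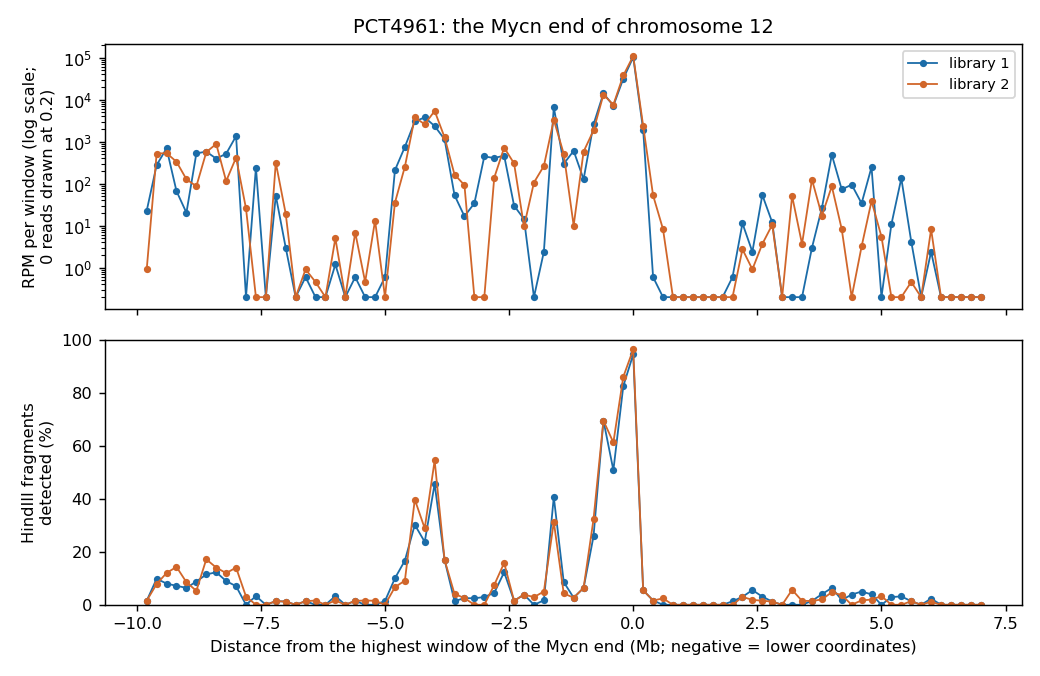
RPM per window (top, log axis) and the percentage of HindIII fragments detected (bottom) in the 85 windows of the Mycn end, against the distance in Mb from its highest window, with PCT4961 library 1 and library 2 as lines. Both lines fall unevenly to the left, with a dip near the highest window and later rises, among them about 4 Mb away. To the right they drop at once, and detection goes from 94.4% and 96.3% to 5.48% in the next window.

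The rest of the Mycn end alternated between stretches of contact and near-empty stretches, at the same places in both libraries. The limits of these stretches were chosen after the values were seen, so they are a description. From 11.2 to 13.2 Mb lay 90.0% of the reads of the Mycn end in each library, and 36.5% and 37.3% of the fragments were detected. From 9.2 to 11.2 Mb only 3.12% and 4.01% were detected. From 8 to 9.2 Mb detection was 24.03% (19.9% to 28.6%) and 26.1% (21.8% to 30.8%), with 18755 and 28959 reads. Its highest window by fragments, 12:8800001-9000000, had 31 and 37 of 68 fragments and 3924 and 11721 reads. From 5 to 8 Mb detection was 0.890% and 0.989%, near the background, and from 3 to 5 Mb, the last stretch before the centromere end of the assembly, it was 8.15% (6.05% to 10.7%) and 10.7% (8.34% to 13.6%). There 10 windows held 7425 and 7800 reads, 445 and 358 RPM per window. From 15 to 20 Mb it was 1.82% (1.23% to 2.58%) and 1.39% (0.885% to 2.08%).

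Windows that were high in both libraries were rare outside chromosome 12. A window was called high where its reads reached the 99th percentile of the background windows of the same library, 702 and 939 reads, in both libraries. The limit comes from the background itself, so a small share of high windows there was set by the rule. Of the background windows 5 of 10911 were high, 0.0458%, and of all windows outside the bait region 95 of 12825, 0.741%. At the Mycn end 14 of 85 were high, 16.5%, in the interior 58 of 465, 12.5%, and on the higher side 12 of 29, 41.4%. Of those 14, 7 lay from 11.2 to 13.2 Mb, 4 from 8 to 9.2 Mb, 2 from 3 to 5 Mb and 1 in between. Of the 10 highest windows outside the bait region by mean RPM, 5 were at the Mycn end, 2 in the interior, 2 on the higher side, 0 in the background and 1 on chromosome 15.

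On both sides of the bait, reads and detected fragments gave different pictures. The Igh locus begins at low coordinates with its constant region genes, and the joining, diversity and variable segments follow towards the end of the chromosome. In the GRCm38 order these are Igha to Ighm, then the J and D segments, then 120 functional V segments. Below Igh follow, going down, Tmem121, Tedc1, Crip1, Gm30599, Crip2, Mta1, Tex22 and Pacs2, and above it Zfp386, Vipr2, Wdr60, Esyt2, Ncapg2, Ptprn2, Rapgef5 and Cdca7l. Mta1 encodes a subunit of a chromatin remodelling complex, Vipr2 a neuropeptide receptor and Ncapg2 a condensin subunit.

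Below the bait window reads declined over 1 Mb. The 3 windows next to it held 31606 and 54024 reads (12:114200001-114400000), 23211 and 29189 (12:114000001-114200000) and 19771 and 32890 (12:113800001-114000000). At least 81.5% of their fragments were detected in each library. Further down, 12:113400001-113600000 held 1048 and 1959 reads, and 12:113000001-113200000 beyond it held 7620 and 7166.

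Above it reads fell at once and rose again further out. The adjoining window 12:114600001-114800000 held 184285 and 238290 reads on 55 and 56 of 65 fragments. The next, 12:114800001-115000000, held 685 and 1165 reads, still on 32 and 36 of 51 fragments. The 4 windows from 114.8 to 115.6 Mb together held 2045 and 2823 reads, 18.6 and 25.7 per detected fragment, with 51.2% of fragments detected in each library. The 4 windows at the same distance on the lower side held 49239 and 70007 reads, 400 and 583 per detected fragment, with 62.1% and 60.6% detected. In both libraries detection thus differed little between the sides and reads by over 20 times.

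Between 115.6 and 116.2 Mb reads rose again to 42197 and 64458. Most lay in 12:115800001-116000000, with 31450 and 48020 reads on 44 and 46 of 59 fragments, and 12:115600001-115800000 held 9254 and 11378. From 116.2 to 117.2 Mb, 5 windows held 1964 and 3042 reads. From 117.2 to 118 Mb, 4 windows held 13712 and 18640, between 2763 and 6197 in each window and library. The alternation of high and low stretches repeated in both libraries. V segments resemble each other in sequence, and how reads that match several places were treated is not given in the sources used here. The fifth named window of this side, 12:119400001-119600000, held 3603 and 3119 reads on 13 and 16 of 83 fragments.

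**Figure D3:**
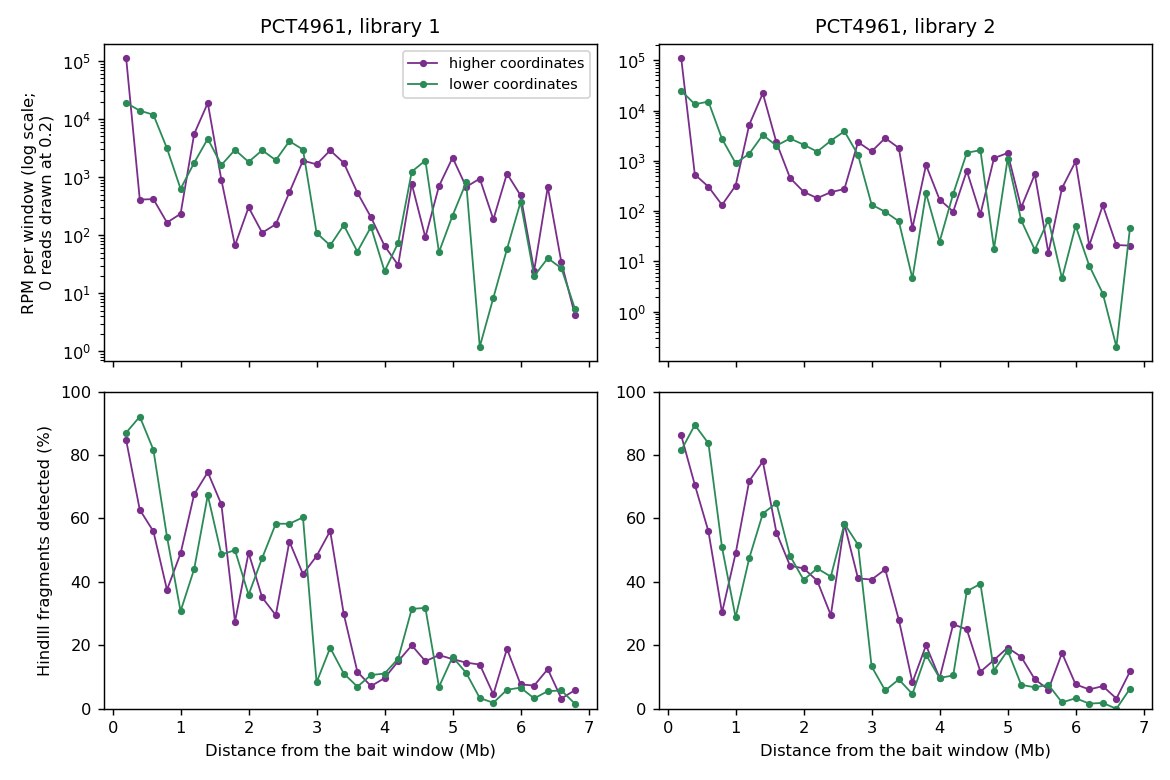
RPM per window (top row, log axis) and percentage of HindIII fragments detected (bottom row) against the distance from the bait window in Mb, for the higher and lower coordinate sides, in PCT4961 library 1 (left) and library 2 (right). The line of the higher side starts at 110444 and 109373 RPM, falls below that of the lower side within 0.4 Mb and rises to 18848 and 22041 RPM at 1.4 Mb, where detection is also raised, at 74.6% and 78.0%.

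Side by side at equal distance, the sign of the difference depended on the measure. Within 1 Mb the mean reads per window on the higher side were 2.30 and 1.94 times those of the lower side, but 4 of the 5 mirrored pairs of windows were lower on the higher side in both libraries. Without the highest window of each side the ratio was 0.0415 and 0.0403. At 1 to 2 Mb the ratio was 2.02 and 2.62, and 0.836 and 0.996 without the highest windows. At 2 to 5 Mb it was 0.847 and 0.964, but 3.65 and 2.79 by the median window, since a few windows of the lower side held most of its reads. Fragments detected were nearly equal there, 26.4% (23.6% to 29.3%) and 27.4% (24.6% to 30.3%) on the higher side and 27.03% (24.1% to 30.1%) and 25.6% (22.7% to 28.7%) on the lower.

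From 5 Mb to the chromosome end the higher side had more contact in both measures than the 9 mirrored windows of the lower side. The last 9 windows of the chromosome held 464 and 236 RPM per window, and the 9 windows at the same distance below held 149 and 29.2, a ratio of 3.12 and 8.09. Detection was 10.2% (7.89% to 13.0%) and 9.20% (6.97% to 11.9%) against 4.95% (3.23% to 7.22%) and 4.16% (2.59% to 6.29%), with intervals that did not overlap in either library. Of these 9 pairs, 7 had the larger detected share on the higher side in both libraries and 0 on the lower, and 2 differed in sign between the libraries. By reads 6 of the 9 pairs were larger on the higher side in both libraries, 1 on the lower, and 2 were mixed. The last window of the chromosome is 57.5 kb long with 17 fragments, and per HindIII fragment the ratio of reads was 2.73 and 7.09. By the median window it was 17.96 and 6.97, so its size differed between the libraries in either form. The 9 mirrored windows were low for the lower side. Over its whole 5 to 10 Mb, which includes them, it held 657 and 627 RPM per window, with 11.6% and 11.96% of fragments detected. Both measures there exceeded those of the last 9 windows of the chromosome in each library. Over all 34 pairs, 17 had more reads on the higher side in both libraries, 13 on the lower, and 4 were mixed.

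Along the interior, contact declined with distance but not evenly. A window of the interior held 12.6 and 12.8 times the mean reads of a background window, and its fragments were detected 7.06 and 7.95 times as often (6.60% and 6.80%). Detection was 48.5% and 51.1% at 1 to 2 Mb from the bait window, 27.03% and 25.6% at 2 to 5 Mb, and 11.6% and 11.96% at 5 to 10 Mb. It then stayed near that level, with 10.7% and 11.9% at 10 to 20 Mb and 11.7% and 11.5% at 20 to 30 Mb, intervals that overlap. At 30 to 50 Mb it was 7.09% and 7.34%, and at 50 to 70 Mb 2.17% (1.83% to 2.55%) and 2.14% (1.81% to 2.52%).

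Even the farthest interior stayed above the background. At 70 to 94.4 Mb detection was 1.68% (1.41% to 1.99%) and 1.83% (1.55% to 2.15%), 1.80 and 2.14 times the background of the same library. The background chromosomes ran from 0.720% to 1.26% in library 1, with a median of 0.910%. In library 2 they ran from 0.643% to 1.11%, with a median of 0.886%. This band lay above all 17 of them in both libraries. In some windows of the band the TEPC1165 library of the same number had more reads. Detection was not recomputed without those windows, and the part of shared reads in the band was not tested. No window beyond 50 Mb in the interior was high in both libraries (0 of 220), against 11 of 100 at 30 to 50 Mb, 13 of 50 at 20 to 30 Mb, 14 of 50 at 10 to 20 Mb, 9 of 25 at 5 to 10 Mb and 11 of 20 nearer.

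**Figure D4:**
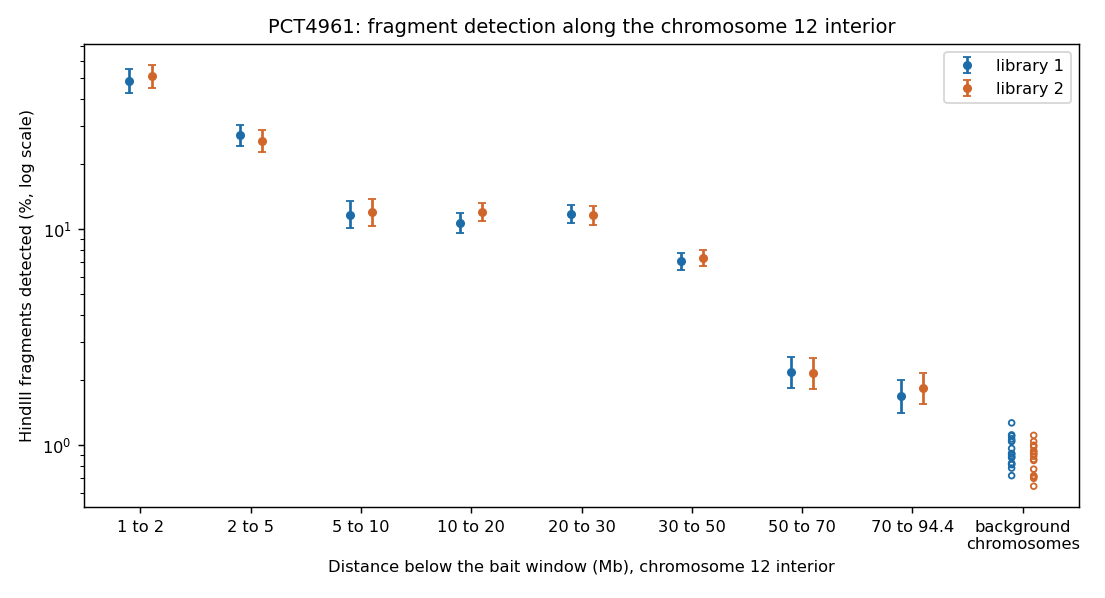
Percentage of HindIII fragments detected (log axis) in 8 bands of distance below the bait window along the chromosome 12 interior, with 95% exact intervals, for PCT4961 library 1 and library 2; open circles are the 17 background chromosomes. Detection is level from 5 to 30 Mb, and the last band, with 1.68% and 1.83%, lies above every background chromosome of the same library.

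The 5 highest interior windows lay up to 21.6 Mb from the bait window. At 1.4 and 2.6 Mb lay 12:113000001-113200000, with 7620 and 7166 reads, and 12:111800001-112000000, with 6927 and 8443. At 8.2 Mb lay 12:106200001-106400000, with 6390 and 6367 reads on 18 of 58 fragments in each library. At 21.4 and 21.6 Mb lay the neighbours 12:93000001-93200000 and 12:92800001-93000000, with 7264 and 8599 and with 4878 and 7733 reads. Of the interior windows, the one with the highest mean RPM held 4353 and 3947 RPM, against 102234 and 108878 RPM in the highest window of the Mycn end.

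Contact in the interior came in stretches. With a dense window defined, after the data were seen, as at least 10% of fragments detected in both libraries, 97 of the 465 interior windows were dense, 20.9%, against 5 of 10911 in the background (0.0458%) and 179 of 12825 outside the bait region (1.40%). At the Mycn end 13 of 85 were dense and on the higher side 19 of 29. The longest dense stretches of the interior were 13 windows each, from 84.8 to 87.4 Mb, with 22.9% and 21.1% of fragments detected, and from 99.8 to 102.4 Mb, with 24.7% and 27.3%. On the higher side 12 windows in a row, from 115.6 to 118 Mb, were dense, with 48.3% and 48.2%. At the Mycn end the longest was 5 windows, from 12 to 13 Mb, with 63.5% and 67.9%, more than either. The 5 dense background windows did not adjoin. Without reads in either library were 98 of the 465 interior windows (21.1%), 17 of 85 at the Mycn end, 0 of 29 on the higher side and 4727 of 10911 in the background (43.3%). The longest empty run of chromosome 12 was 9 windows, from 19 to 20.8 Mb.

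The background was sparse and repeated poorly. Of its windows 39.7% and 36.7% held a read, and the median window held 0. Of the windows with a read in library 1, 49.8% also had one in library 2, and 53.9% the other way. In the interior these shares were 82.6% and 85.5%, and at the Mycn end 86.4% and 85.0%. The Pearson correlation of detected fragments per window between the libraries was 0.38 in the background, 0.94 in the interior, 0.95 on the higher side and 0.98 at the Mycn end, given as descriptions across windows. By the share of fragments detected, the libraries ranked the background chromosomes alike (Spearman rho 0.90 over 17 chromosomes, a description), with chromosome 11 the highest in both. By RPM per window chromosome 11 was the highest in library 1 (29.6) and chromosome 19 in library 2 (38.6).

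The highest background window was 6:70600001-70800000, with 3542 and 4096 reads on 15 and 14 of 58 fragments. It was the only background window both high and dense. The next, 1:58200001-58400000 with 2159 and 980 reads and 17:56600001-56800000 with 1315 and 1884, rested on 2 to 4 fragments per library. Window 3:32200001-32400000 held 2512 reads in library 1 and 78 in library 2, and 6:129000001-129200000 held 1689 and 1053 on 12 and 6 fragments.

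In each region, windows with under 55 HindIII fragments had a larger share of them detected than windows with 75 or more. In the background 1.59% (1.51% to 1.68%) and 1.54% (1.46% to 1.62%) of fragments were detected in windows with under 55 fragments, and 0.728% (0.682% to 0.775%) and 0.568% (0.528% to 0.610%) in windows with 75 or more. In the interior the shares were 12.5% and 12.3% against 2.44% and 2.53%, and at the Mycn end 14.5% and 13.9% against 1.06% and 0.864%. The first class exceeded the last 2.19 and 2.70 times in the background, 5.12 and 4.86 times in the interior and 3.23 and 3.21 times on the higher side. The classes between did not fall in order on the higher side, with 26.9% and 27.6% at 55 to 64 fragments and 30.7% and 31.1% at 65 to 74. Within a class of fragment number, the interior exceeded the background 3.35 to 9.97 times and the higher side 17.8 to 45.0 times. The Mycn end exceeded it 9.02 to 12.2 times in windows with under 75 fragments, and 1.45 and 1.52 times in the 13 windows with 75 or more, where its interval includes the background share.

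**Figure D5:**
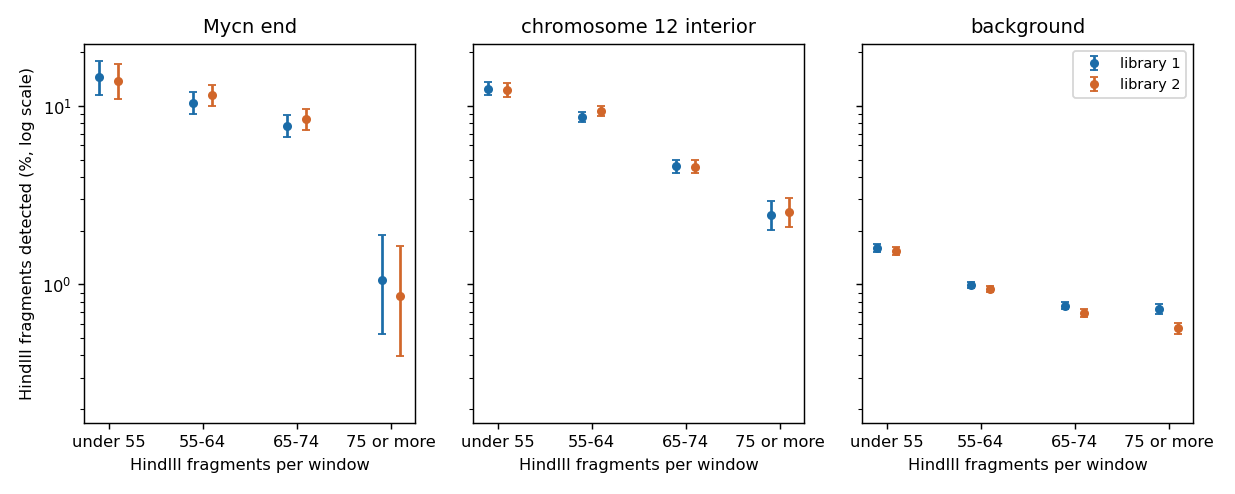
Percentage of HindIII fragments detected (log axis) by the number of HindIII fragments in the window, with 95% exact intervals, at the Mycn end (left), in the chromosome 12 interior (middle) and in the background (right), for PCT4961 library 1 and library 2. Detection falls with the number of fragments in each panel, from 12.5% and 12.3% to 2.44% and 2.53% in the interior.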

How the data were processed

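The authors deposited, per the file headers, raw counts for 200 kb windows of mm9: the reads on HindIII fragments, the fragments with at least 1 read and all fragments. No normalization is stated. Neither headers nor labels name the aligner, the bait coordinates or the treatment of PCR duplicates (not given in the sources used here). The window with the most reads served as the bait window, and windows within 1 Mb of it (start to start) formed the bait region. Reads were summed per region and distance band in each library and divided by windows or by HindIII fragments. Windows needed at least 1 fragment. Shares have Wilson (reads) or Clopper-Pearson (fragments) intervals. No test across windows was made, since windows of a library are not replicates. The measures were tested on simulated counts. Regions, lists and alternatives were chosen with earlier results of these data known.

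Named windows were, by mean RPM of the libraries, the 5 highest of the Mycn end, of the higher side, of the interior and of the background, and the 3 highest on each side in the bait region. Gene order came from RefSeq on GRCm38: the 8 nearest protein-coding genes on each side of Mycn and of Igh. Alternatives were other measures, bases, filters and percentiles, windows without a possible share of TEPC1165 reads, and each library left out. Python 3.11.15, pandas 2.3.3 and scipy 1.17.1 were used.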

Additional observations from a re-analysis of the deposited data

Results flagged for a closer look

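Chromosome 15 was part of no region and entered only the totals, counts and ranking over all windows. Its window 15:61800001-62000000 held 12510 reads in library 1 and 16799 in library 2, on 55 and 58 of 69 fragments. Both are above the limit that a count of 0 allows. In this window the TEPC1165 library of the same number held 282973 and 382973 reads. The PCT4961 reads are 4.42% and 4.39% of these, and the part of shared reads in them was not tested. The X chromosome entered in the same way, and was added to the background in an alternative. Its window X:33600001-33800000 held 991 reads in library 1, all on 1 fragment, and 0 in library 2.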

How the results depend on the processing

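No paired analysis was possible because the values come from no test and from a single tumor. The median background window held 0 reads in each library; no depth was varied. Of 94 repeats of 19 results, 60 stayed within the limits set for them, 27 moved and 7 turned direction. The cause was not tested. For results that are means of the 2 libraries the limit was their SD, and each library lies within it. Repeats of these results with a library left out therefore stayed by construction, and are among the 60. The threshold of 10% for dense windows, with its alternatives, was chosen after seeing the data. All values below are means of the libraries or counts.

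The Mycn end share of 30.4% was 4.32% with detected fragments in place of reads, 19.1% of all reads, 32.4% with a bait region of 2 Mb on each side and 16.3% without its highest window. The ratio of higher to lower side within 1 Mb, 2.12, turned to 0.0293 by the median window, 0.892 by detected fragments and 0.0409 without the highest windows. At 1 to 2 Mb, 2.32 turned to 0.799 by the median (0.490 in library 1 but 1.11 in library 2, so in 1 library only) and to 0.916 without the highest windows, and was 1.18 by detected fragments. At 2 to 5 Mb, 0.905 turned to 3.22 by the median and 1.02 by detected fragments (0.976 in library 1 and 1.07 in library 2, so in 1 library only), and was 0.800 per fragment. From 5 Mb, 5.60 was 12.5 by the median (17.96 and 6.97). The interior over background, 12.7, was 7.50 by detected fragments, 1.78 by windows with a read, 11.2 without the 5 highest windows, 13.3 with X in the background and 13.7 without windows as high in TEPC1165.

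High windows counted by fragments were 22 at the Mycn end, 128 in the interior, 26 on the higher side and 39 in the background; at the 95th percentile 103 and 72 in the interior and background, and at the stricter percentile 3 in the background. Without windows as high in TEPC1165 the counts were 13, 40, 12 and 5. Dense windows at 5% of fragments were 24 at the Mycn end and 108 in the background, and at 20% 50 in the interior and 1 in the background. With either library left out only the value of the other remains, so these repeats add nothing to the values per library. The share of the Mycn end then ran from 29.6% to 31.1% and interior over background from 12.6 to 12.8. The side ratios ran from 1.94 to 2.30, 2.02 to 2.62, 0.847 to 0.964 and 3.12 to 8.09. High background windows were then 110 by construction, and dense ones 26.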
